A study of Mus musculus with 16 samples.

Results

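The data described here follow the normal step from the DN3 to the ISP8 thymocyte subset in PKBalpha+/+ mice. They comprise 8 of the 16 arrays of the series, namely 4 of sorted DN3 cells and 4 of sorted ISP8 cells. Both subsets came from each of 4 mice, and the arrays were chosen by genotype and paired by the animal number that ends the sample title, without use of any measured value. The 8 mice of the series were PKBalpha+/+ and PKBalpha-/- littermates on a C57Bl/6 background, and no treatment was given. Mouse 1 was a female of 5 weeks, mouse 2 a male of 2 weeks, mouse 3 a male of 3 weeks and mouse 4 a female of 3 weeks. DN3 cells were sorted as lineage-negative cells with CD25 and without CD44, and ISP8 cells as cells with CD8 and without CD4 and CD3. RNA from each sort was labelled after 2 rounds of amplification and hybridized to an Affymetrix whole-genome mouse array, and the deposited GC-RMA expression values (linear intensities, log2 taken for every test) are given below without a unit. Within a mouse age, sex and litter are shared by both subsets.

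T cell precursors in the thymus pass through double negative (DN) stages that carry neither CD4 nor CD8. At DN3 the cells rearrange the T cell receptor (TCR) beta, gamma and delta genes under Notch and interleukin-7 signals, and most of them rest. A productive beta chain pairs with the invariant pre-TCR alpha chain and the CD3 chains to form the pre-TCR, whose signal ends beta rearrangement, starts rapid division and carries the cells through DN4 to a short-lived immature single positive stage with CD8 (ISP8). ISP8 cells then gain CD4, become double positive (DP) cells, leave the cycle and rearrange the TCR alpha genes. The comparison of DN3 with ISP8 cells in PKBalpha+/+ mice therefore asks which genes change over this checkpoint when it runs normally.

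The genes of CD25 and CD8 stood where the labels of the sort put them. Il2ra, which encodes CD25, measured 6899, 7710, 8608 and 9316 in the DN3 cells of mice 1 to 4 and 84.8, 174, 231 and 251 in their ISP8 cells. Cd8a measured 281.5, 156.4, 281 and 267 in the DN3 arrays and 5778, 6045, 6124 and 5750 in the ISP8 arrays, and Cd8b1, the other chain of CD8, rose from 115.1 to 308.5 in the DN3 arrays to 1738 to 2603 in the ISP8 arrays. No DN3 array overlapped an ISP8 array for these 3 genes, whose log2 changes (ISP8 minus DN3) were -5.56, 4.63 and 3.44. Because antibodies to CD25 and CD8 chose the cells, these values check the sort and are not findings. Kit, the stem cell factor receptor of early progenitors, was lower in every ISP8 array (log2 change -2.14, adjusted p = 5.21e-06 by limma). Cd4 measured 4.66 to 44.5 in the DN3 arrays and 30.6 to 95.1 in the ISP8 arrays, and did not pass (log2 change 2.06, adjusted p = 0.0615). Cd3e (log2 change 0.50, adjusted p = 0.063) and Cd44 (log2 change -0.49, adjusted p = 0.275) did not pass either.

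**Figure D1:**
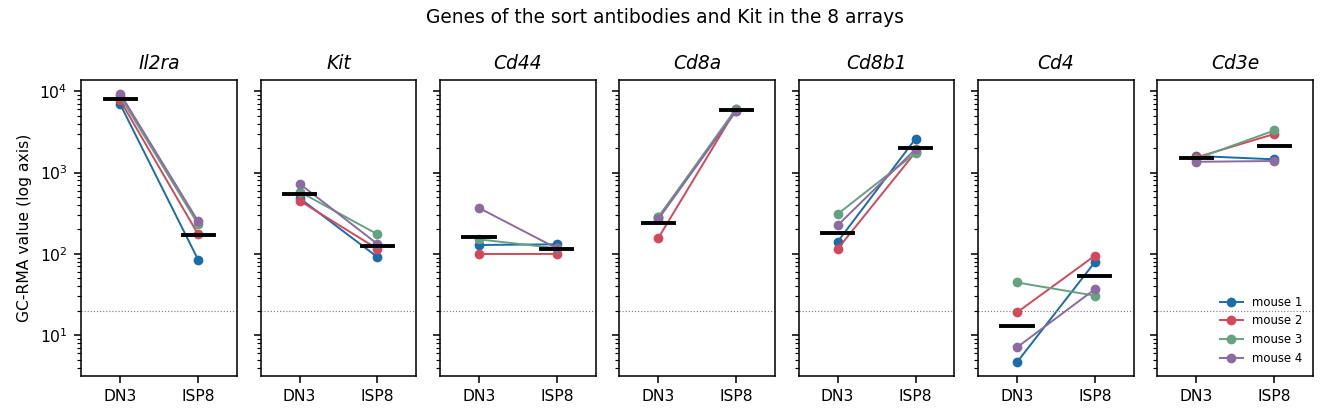
GC-RMA value (log axis) of 6 genes of the sort antibodies and of Kit in DN3 and ISP8 cells, with a line for each of the 4 PKBalpha+/+ mice, a black bar at the geometric mean of a subset and a dotted line at the floor of 20. The lines of Il2ra and Kit fall and those of Cd8a and Cd8b1 rise in every mouse, Cd4 stays between 4.66 and 95.1, and Cd3e and Cd44 overlap between the subsets.

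The arrays were alike in overall signal, with 69.5% to 72.8% of the 45101 probe sets above a value of 20. The median value was 58.7 to 70.5 in the DN3 arrays and 55.1 to 60.4 in the ISP8 arrays, lower in the ISP8 array of every mouse (exact two-sided sign-flip test over 4 mice, p = 0.125, the smallest it can give). Spiked hybridization controls moved by -0.21 (log2, exact sign-flip p = 0.125) and the difference of the actin 3′ and 5′ probe sets by -0.65 (exact p = 0.125). The same difference for Gapdh moved by -0.06 (exact sign-flip p = 0.75) and was higher in ISP8 cells in 2 of 4 mice. Signal level and the actin sign of RNA quality therefore moved with subset, while the Gapdh sign was mixed. Their part in the results was not tested. The array numbers in the titles run lower for ISP8 than for DN3, so array order and subset cannot be told apart. Akt1, which encodes PKBalpha, measured 1198 to 2211 in the PKBalpha+/+ arrays and 2.01 to 27.2 in the PKBalpha-/- arrays at its brightest probe set.

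Over the whole array 9957 of 34464 tested probe sets (28.9%) passed an adjusted p of 0.05 (limma, paired by mouse, Benjamini-Hochberg). Of these, 3996 (11.6% of those tested) were higher and 5961 (17.3%) lower in ISP8 cells, so 40.1% of the calls were rises. That split depended on the scale between arrays. It became 50.1% rises after quantile normalization, 57.5% with each array centred on its median and 59.9% with each centred on the hybridization controls, while the median change of all probe sets moved from -0.09 to 0.03, 0.10 and 0.13 (log2). Changes are given on the deposited scale, and a direction that another scaling turned is named as such. Large changes were mostly falls. Among probe sets that passed, 1259 rose and 3149 fell at least 2-fold, 350 rose and 980 fell at least 4-fold, and 26 rose and 108 fell at least 16-fold. Of all probe sets that passed, 96.3% moved the same way in 4 of 4 mice. Passing a test paired by mouse favours that pattern, and no such share over all tested probe sets is given. The DN3 and ISP8 values of 9190 tested probe sets (26.7%) did not overlap. In these sorted bulk samples, fewer cells of a type and less RNA per cell cannot be told apart.

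**Figure D2:**
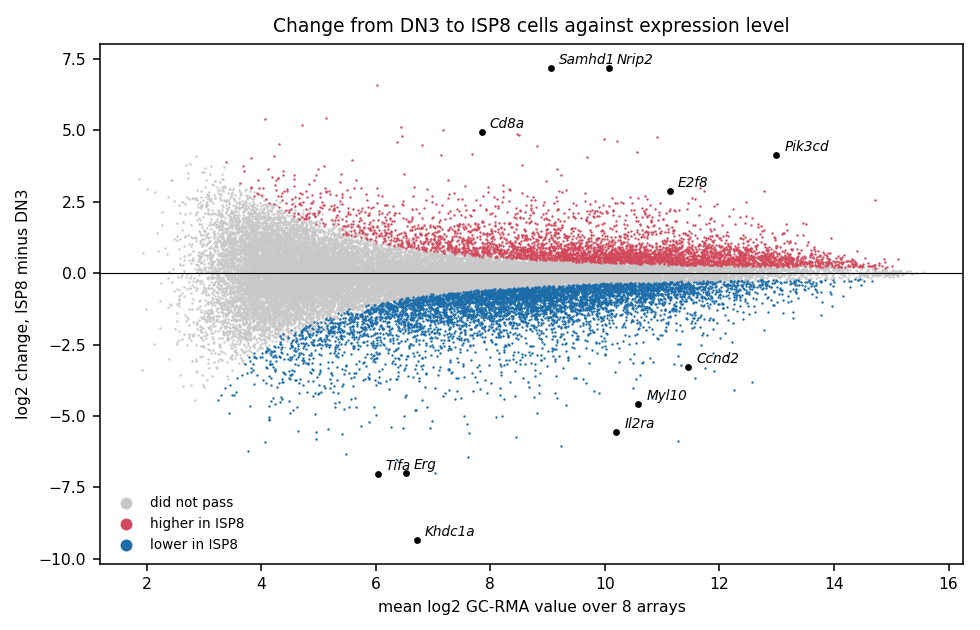
Log2 change from DN3 to ISP8 (mean of 4 mice) against the mean log2 value over the 8 arrays for the 34464 tested probe sets, with red for the 3996 that passed as higher, blue for the 5961 that passed as lower and grey for the rest. Falls reach -9.34 (Khdc1a) while the highest rises are 7.19 (Samhd1) and 7.17 (Nrip2), and most of the brightest probe sets lie close to 0.

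With each gene represented by its brightest probe set, 14796 genes were tested, of which 2073 (14%) rose, 2913 (19.7%) fell and 33.7% changed in either direction. The genes were grouped in 43 lists by function, with 830 of 900 listed genes tested. Mitosis genes and DNA replication genes rose almost throughout, with 53 of 53 and 44 of 46 tested members passing as higher. Respiratory chain subunits (43 of 75 higher) and G1 regulators (17 of 27 higher) followed. Lists in which most tested members fell were the interferon-inducible genes (30 of 37 lower), MHC class I genes (10 of 12), pre-TCR and CD3 chains (4 of 5), gamma-delta T cell markers (6 of 8) and the Notch pathway (12 of 19), among others. Most ribosomal protein genes did not pass, with 3 of 45 higher and 3 lower.

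**Figure D3:**
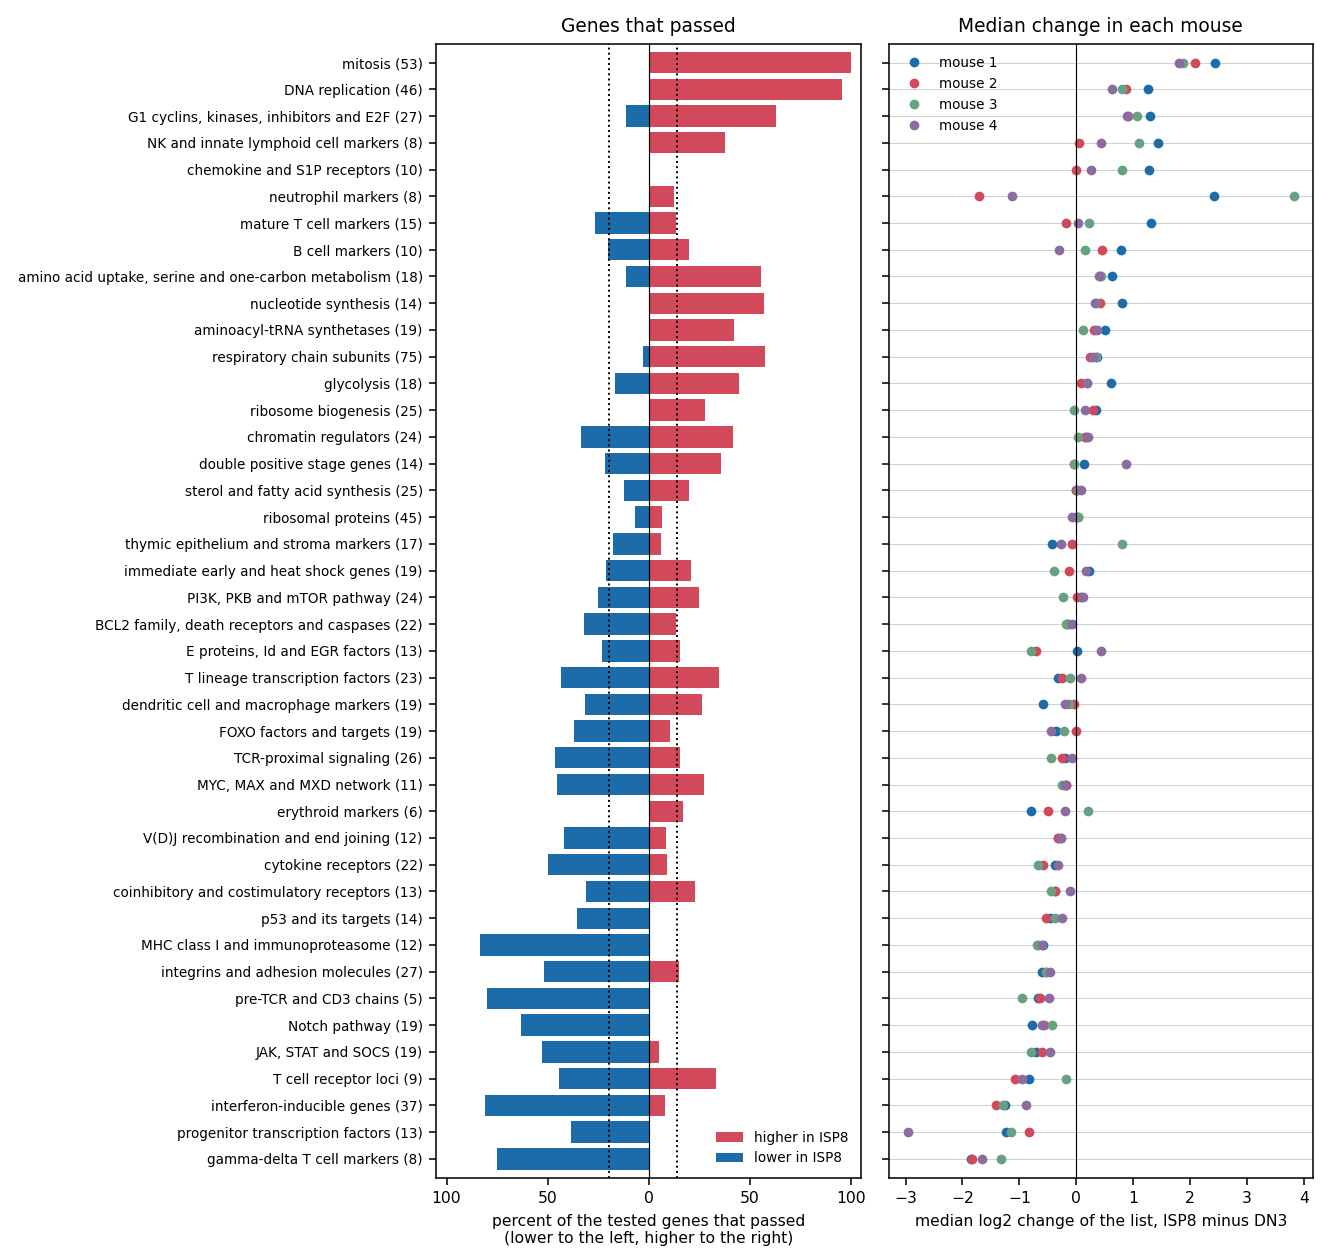
Left, percent of the tested genes of each list that passed as lower (bars to the left) or higher (bars to the right) in ISP8 cells, with dotted lines at the shares over all tested genes (19.7% lower, 14% higher). Right, median log2 change of each list in each of the 4 mice, where the mitosis medians lie together at 1.81 to 2.43 and the neutrophil medians spread from -1.71 to 3.82.

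The Notch pathway was lower in ISP8 cells. Notch receptors release an intracellular domain that acts with Rbpj on target genes, and Hes1, Dtx1 and Notch3 are among these targets in early T cells. Hes1, a transcriptional repressor, measured 3095, 3012, 2335 and 2076 in the DN3 arrays and 120.2, 149.7, 91.2 and 158.1 in the ISP8 arrays (log2 change -4.35, SE 0.18, adjusted p = 3.81e-09). The lowest DN3 array lay far above the highest ISP8 array. Dtx1, which encodes Deltex, measured 3679, 5391, 6048 and 5006 in the DN3 arrays and 413.5, 640.7, 440.5 and 1406 in the ISP8 arrays, mouse 4 standing highest after the fall (log2 change -2.96). Notch3 fell by 2.46 on the log2 scale, and Hes5 by 2.97 with 2 of 4 ISP8 values under the floor of 20. The receptor Notch1 started far brighter, at 21920 to 25520, and fell only to 12150 to 16680 (log2 change -0.81). Of 19 tested members 12 passed as lower and 0 as higher, with 0 higher at an unadjusted p of 0.05 as well, and the list's median change was -0.65 against -0.05 over all genes. With median-centred arrays 9 members passed as lower and 2 as higher. Nrarp, another Notch target, did not pass (log2 change -0.17, adjusted p = 0.671).

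Chains of the pre-TCR complex were also lower. Ptcra, the pre-TCR alpha chain, measured 4420, 5353, 6696 and 6947 in the DN3 arrays and 1243, 1493, 1485 and 2148 in the ISP8 arrays (log2 change -1.88, SE 0.11, adjusted p = 4.1e-08). Cd3g fell by 1.13, Cd247 by 0.64 and Cd3d by 0.49 on the log2 scale, so 4 of 5 listed chains passed and Cd3e did not. ISP8 cells were sorted as cells without CD3, and the part of that choice in these values was not tested. Among the signaling proteins below the receptor, 4 of 26 tested genes were higher and 12 lower (median -0.16, which became 0.02 with median-centred arrays, where 8 were lower, and 6 were with hybridization-control centring). Zap70, the kinase that binds phosphorylated CD3 chains in mature T cells, measured 207.3, 349.3, 326.6 and 339.7 in the DN3 arrays and 975.8, 962.9, 1069 and 817.3 in the ISP8 arrays (log2 change 1.67). Syk, its relative that is prominent in pre-TCR signaling, moved the other way (log2 change -1.29), as did the theta isoform of protein kinase C (Prkcq, -1.28). Cd6 (1.5) and Cd5 (1.22), surface molecules that temper TCR signals, rose in all 4 mice.

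Recombination genes changed by less. Rag1 and Rag2, which make the DNA breaks of V(D)J recombination, were lower by 0.65 and 0.64 (log2), with Rag1 still at 10460 to 12400 in the ISP8 arrays against 14730 to 20050 in the DN3 arrays. Dntt, the polymerase that adds untemplated bases, was lower by 0.27. Hmgb2, a chromatin protein that assists RAG and is also tied to the cell cycle, rose by 1.46 and was the 1 of 12 tested members that passed as higher, beside 5 lower (3 with either centring). The TCR gene segments moved apart. Trgv4, a variable segment of the gamma locus, measured 24620, 16300, 18630 and 22270 in the DN3 arrays and 1219, 1352, 1512 and 784.3 in the ISP8 arrays (log2 change -4.09, SE 0.17), and Trgv1 fell by 4.35. The alpha-locus segments Trav9d-3 (2.44) and Trav12n-2 (1.91) rose, while the probe set named Tcra fell by 2.43. Such segments share sequence within their families, so a probe set may read several of them. Of 8 tested gamma-delta T cell markers 6 were lower, among them the transcription factors Maf (-3.49) and Sox13 (-1.61) and the kinase Blk (-1.66), with a summed level of 5720 to 10400 in the DN3 arrays and 1695 to 2772 in the ISP8 arrays.

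Transcription factors of uncommitted progenitors were dim or absent after the step. Erg, an ETS factor of stem and progenitor cells, measured 1075, 862.4, 1080 and 1186 in the DN3 arrays and 8.68, 4.28, 34.8 and 3.38 in the ISP8 arrays, so that 3 of 4 ISP8 values lay under the floor of 20 (log2 change -7.00, SE 0.47, adjusted p = 1.62e-07). Bcl11a fell by 3.28, Hoxa9 by 2.86 and Mef2c by 2.13 on the log2 scale. Spi1, which encodes PU.1 and marks the stages before T lineage commitment, was dim in both subsets (49.7 to 109 in DN3, 65.5 to 87.3 in ISP8). Of 13 tested factors 5 passed as lower and 0 as higher, with 0 higher and 8 lower at an unadjusted p of 0.05.

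T lineage factors split, with 8 of 23 tested members higher and 10 lower. Ikzf3, which encodes Aiolos, measured 156.4, 108.1, 120.6 and 95.8 in the DN3 arrays and 695.9, 1132, 850.2 and 899.8 in the ISP8 arrays (log2 change 2.90, SE 0.22, adjusted p = 5.57e-07). Satb1, a chromatin organizer of thymocytes, rose from 7624 to 9813 to between 15670 and 17620 (log2 change 1.0), and Ets1 and Lef1 rose by 0.48 and 0.47. Runx1 fell from 6961 to 9685 to 2202 to 3039 (log2 change -1.73), Bach2 fell by 2.88, and Bcl11b, a commitment factor, by 0.74. Gata3 did not pass (log2 change -0.12, adjusted p = 0.497). Id2 and Id3, which bind E proteins and keep them off DNA, moved in opposite directions. Id3, a target of pre-TCR signals, measured 654.5, 578.3, 1055 and 516 in the DN3 arrays and 1299, 1104, 1777 and 1479 in the ISP8 arrays (log2 change 1.05). Id2 fell by 2.22 on the log2 scale. The early growth response factors Egr1, Egr2 and Egr3, induced by receptor signals, did not pass (log2 changes -0.37, 0.20 and -0.49 at the brightest probe sets), while the other Egr2 probe set fell by 1.18.

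Cytokine signaling genes that passed were mostly lower in ISP8 cells. Il7r, the interleukin-7 receptor alpha chain that sustains early thymocytes, measured 6689, 6067, 6978 and 7470 in the DN3 arrays and 811.7, 765.7, 1257 and 850.5 in the ISP8 arrays (log2 change -2.91, SE 0.12, adjusted p = 3.59e-09). Socs3, Socs2 and Cish are feedback inhibitors that cytokine receptors induce through STAT proteins. Socs3 measured 2781, 3751, 3661 and 2509 in the DN3 arrays and 135.2, 97.6, 110.9 and 190.7 in the ISP8 arrays (log2 change -4.60, SE 0.22), with no overlap. Socs2 fell by 4.09 and Cish by 2.67 on the log2 scale, and Stat4 and Stat3 by 1.89 and 1.21. In all, 11 of 22 tested cytokine receptors were lower and 2 higher, and 10 of 19 tested JAK, STAT and SOCS genes were lower and 1 higher. The receptors counted as lower include Il2ra, whose fall follows from the sort on CD25. Chemokine receptors gave no call by limma among 10 tested (1 at an unadjusted p of 0.05), but 7 of the 10 were under a value of 100 on all 8 arrays. Ccr9 and Cxcr4, the bright ones, had changes of -0.02 and -0.08 (log2) at their brightest probe sets. The 4 other Ccr9 probe sets changed by -0.41, -0.40, -0.39 and -0.51 and did not pass.

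Surface molecules changed in both directions, with 14 of 27 adhesion genes lower and 4 higher. Cd2, an adhesion and costimulatory receptor, measured 94, 76.7, 82.9 and 175.8 in the DN3 arrays and 1101, 1336, 1424 and 1762 in the ISP8 arrays (log2 change 3.78, SE 0.19, adjusted p = 2.03e-08). Cd28, the main costimulatory receptor of T cells, rose from 1033 to 1648 to 3424 to 4365 (log2 change 1.5). Ctla4, which shares ligands with CD28, moved the other way, from 1836, 1463, 1688 and 2394 in the DN3 arrays to 165.6, 239, 331 and 248.9 in the ISP8 arrays (log2 change -2.93). Mpzl2, a junctional adhesion protein, fell (log2 change -4.03), as did the integrin chain Itgb3 (-3.46), the cell adhesion molecule Alcam (-3.11) and the tetraspanins Cd53 (-2.80) and Cd82 (-2.47).

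The regulators of G1 exchanged members. Ccnd2, a D-type cyclin that acts early in G1, measured 13100, 11310, 12870 and 12920 in the DN3 arrays and 1443, 883.5, 1209 and 1235 in the ISP8 arrays (log2 change -3.41, SE 0.10, adjusted p = 3.59e-10). Its 6 other probe sets fell by 2.97 to 3.71. The brightest probe set of Ccnd3, the D-type cyclin known to be needed for thymocyte expansion, rose from 1459, 1907, 1815 and 2057 to 4757, 5685, 4390 and 4270 (log2 change 1.40), but its other probe sets passed in opposite directions (-1.05 and 1.05). Cdk6, a kinase partner of D-type cyclins, fell by 1.47 from 21500 to 26180, and Cdk4, the other such partner, rose by 0.45 (log2). Ccne1, the cyclin that opens S phase, measured 674.2, 1531, 1313 and 1290 in the DN3 arrays and 7914, 9358, 8013 and 11540 in the ISP8 arrays (log2 change 2.98). Cdkn1a, which encodes the cyclin-dependent kinase inhibitor p21, fell from 1378 to 2433 to 87.3 to 269.1 (log2 change -3.60). Cdkn2c, which encodes another cyclin-dependent kinase inhibitor, rose by 2.91. The E2F factors E2f8 (2.88), E2f7 (2.11), E2f2 (1.86) and E2f1 (0.72) rose. For E2f8, a repressor that E2F itself induces, the values were 763.6, 715.2, 1102 and 780.4 in the DN3 arrays and 6193, 6427, 6146 and 5573 in the ISP8 arrays. E2f5 rose at 1 probe set only (log2 change 2.89, or 3.54 without mouse 2), while its others changed by -0.09 and -0.14 and did not pass.

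DNA replication genes rose as a group by less than mitosis genes, in each mouse. The median change of 46 tested replication genes was 0.88 (1.25, 0.88, 0.80 and 0.62 in mice 1 to 4), and that of 53 tested mitosis genes 2.08 (2.43, 2.09, 1.87 and 1.81). No member of either list passed as lower by limma, and none was lower at an unadjusted p of 0.05. Cdc6, which loads the replicative helicase, measured 1925, 2621, 2035 and 2398 in the DN3 arrays and 6275, 7222, 5979 and 5446 in the ISP8 arrays (log2 change 1.48, SE 0.10, adjusted p = 2.68e-07). The helicase subunit Mcm5 was already at 9595 to 13200 in the DN3 arrays and rose by 0.67, and the clamp Pcna rose by 0.78 from 14380 to 18450. Kif11, a motor that separates spindle poles, measured 354.5, 462, 808 and 716.7 in the DN3 arrays and 3530, 3734, 3200 and 3570 in the ISP8 arrays (log2 change 2.66). Ube2c, the ubiquitin carrier of the anaphase-promoting complex, measured 468.2, 364.8, 1007 and 801.2 in the DN3 arrays and 3168, 2560, 4852 and 5284 in the ISP8 arrays (log2 change 2.64). In DN3 cells Cdk1, Aurkb, Top2a and Kif11 each stood higher in mice 3 and 4 than in mice 1 and 2, and the ISP8 arrays of all 4 mice lay above them. Fen1, a flap endonuclease, had the largest change of the replication list, yet its DN3 values of 6019, 39440, 7414 and 8743 held 1 array far above the rest (ISP8 55180 to 80250, log2 change 2.55, other probe set 0.93).

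Some short motifs stand in unlike shares of the promoters of replication and mitosis genes. Promoters of 4 genes are shown because their genes rose and each holds one of the motifs counted below. They are the 150 bases before the annotated start in RefSeq (GRCm38.p6), read 5′ to 3′ on the strand of the gene, with the motif in capitals. In Cdc6 (chr11:98908001-98908150, plus strand) and Rpa3 (chr6:8259142-8259291, minus strand), the capitals mark an E2F motif, searched as TTGGCGC or TTCCCGC on both strands. The CCAAT boxes of Rpa3, which read ATTGG, are left in small letters. In Kif11 (chr19:37376232-37376381, plus strand) and Ube2c (chr2:164769779-164769928, plus strand), they mark the cell cycle homology region TTTGAA and the CCAAT box CCAAT, both of which lie on the opposite strand here and so read TTCAAA and ATTGG. Rpa3, a subunit of the single-strand binding protein RPA, rose by 1.36.
Cdc6: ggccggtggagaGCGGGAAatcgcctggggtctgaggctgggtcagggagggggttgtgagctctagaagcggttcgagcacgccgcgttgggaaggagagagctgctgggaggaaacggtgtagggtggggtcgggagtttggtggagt
Rpa3: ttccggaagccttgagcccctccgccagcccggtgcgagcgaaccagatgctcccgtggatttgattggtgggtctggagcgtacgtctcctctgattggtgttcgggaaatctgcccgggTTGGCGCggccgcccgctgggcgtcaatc
Kif11: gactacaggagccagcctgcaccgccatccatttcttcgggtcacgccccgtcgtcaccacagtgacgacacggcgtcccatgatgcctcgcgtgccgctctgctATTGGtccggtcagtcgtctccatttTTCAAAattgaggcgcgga
Ube2c: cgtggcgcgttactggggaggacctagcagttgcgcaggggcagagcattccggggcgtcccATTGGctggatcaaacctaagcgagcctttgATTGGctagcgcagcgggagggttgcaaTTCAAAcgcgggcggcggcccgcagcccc
Motifs were counted over windows from 250 bases before to 50 after each start. An E2F motif in either form stood in 22 of 46 windows from 38 replication genes (47.8%). It stood in 8 of 45 windows from 43 mitosis genes (17.8%) and in 6.81% of all 32851 windows. These are counts of windows and not of genes, and tested genes without a window are left out. A cell cycle homology region together with a CCAAT box stood in 29 of 45 windows of mitosis genes (64.4%). The shares were 4 of 46 windows of replication genes (8.7%) and 6.95% of all windows. A CCAAT box by itself was common in both lists. It stood in 27 of 46 windows of replication genes (58.7%), 34 of 45 of mitosis genes (75.6%) and 37.4% of all windows. A match is a run of letters and not a measured binding site.

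Genes of growth and metabolism that passed were mostly higher, in numbers that moved with the scale between arrays. Of 75 tested respiratory chain subunits 43 were higher and 2 lower, with a median change of 0.30, and the number higher was 26 after quantile normalization, 60 with median-centred arrays and 58 with hybridization-control centring. Uqcrfs1, the iron-sulfur subunit of complex III, rose by 0.91 and Ndufa4 by 0.84, whereas Cox6b2, an isoform known from testis, fell by 1.84. Of 18 glycolysis genes 8 were higher and 3 lower. Ldha, which makes lactate, measured 5597, 11380, 10920 and 6609 in the DN3 arrays and 15430, 19260, 17480 and 17240 in the ISP8 arrays (log2 change 1.07), and the phosphofructokinase Pfkp rose by 1.43. Hk2 (-0.08) and the glucose transporter Slc2a1 (0.09) did not pass. Aldoc, an aldolase isoform, fell by 2.28. Of the 18 tested genes of amino acid uptake and one-carbon metabolism, 10 rose and 2 fell, with Mthfd2, the mitochondrial folate enzyme, at 1.45 and the leucine transporter Slc7a5 at 1.18. Among nucleotide synthesis genes 8 of 14 were higher, among aminoacyl-tRNA synthetases 8 of 19 and among ribosome biogenesis genes 7 of 25, and 0 of each were lower, with 0 lower at an unadjusted p of 0.05. After quantile normalization these counts were 9, 8 and 3, with median-centred arrays 14, 15 and 15, and with hybridization-control centring 13, 15 and 14. Sterol and fatty acid synthesis had a median change of 0.00, with 5 of 25 higher and 3 lower (8 and 2 with either centring).

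Myc and Mycn were lower over the same step, within a list of 11 tested genes with 3 higher and 5 lower (3 lower with hybridization-control centring). Myc, the growth factor-induced transcription factor, measured 3551, 3696, 4644 and 3493 in the DN3 arrays and 3108, 2167, 2856 and 3006 in the ISP8 arrays (log2 change -0.47, adjusted p = 0.00837). Mycn, its relative, fell from 695.4 to 1098 to 55 to 177 (log2 change -3.04). Mxd3, an antagonist tied to S phase, rose by 2.23, while Mxd1 fell by 0.84. Mxd4 fell by 1.26 at its brightest probe set, but a dim probe set of the gene passed the other way (1.48, adjusted p = 0.0448 by limma). Chromatin regulators split, with 10 of 24 higher and 8 lower. The maintenance methyltransferase Dnmt1 (0.84) and the Polycomb methyltransferase Ezh2 (1.10) rose, while Ezh1 (-1.39), the DNA demethylases Tet1 (-1.54) and Tet2 (-1.62) and the de novo methyltransferase Dnmt3b (-1.30) fell.

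Of 22 tested genes of the BCL2 family, death receptors and caspases 3 were higher and 7 lower, which became 4 and 5 after quantile normalization and 5 and 4 with either centring. Bcl2, which blocks mitochondrial cell death, measured 6325, 2940, 3844 and 4909 in the DN3 arrays and 1153, 828.8, 855 and 1052 in the ISP8 arrays (log2 change -2.17, SE 0.12, adjusted p = 3.77e-08), and 4 of its 4 other probe sets passed as lower too. Bcl2l1, which encodes the related protector BCL-XL of DP cells, rose from 422.3 to 532.6 to 790.3 to 1339 (log2 change 1.07). Mcl1, a further protector, fell by 0.74 and the proapoptotic Bmf by 1.54, while Bid (1.01) and the death receptor Fas rose. The change of Fas was 2.41, or 1.59 without mouse 1, whose DN3 value of 7.26 lay under the floor. Of 14 tested p53 genes 5 were lower and 0 higher (2 higher at an unadjusted p of 0.05), and 2 were lower and 1 higher with either centring. Among FOXO factors and targets 7 of 19 were lower and 2 higher (4 higher with either centring), with Foxo3 at -1.02 and Foxo1 at 0.58. Pik3ip1, an inhibitor of PI3K, measured 8421, 4851, 5046 and 5797 in the DN3 arrays and 1227, 1049, 890.5 and 1070 in the ISP8 arrays (log2 change -2.48), and Txnip, which restrains glucose uptake, fell by 1.34. The PI3K, PKB and mTOR list had 6 of 24 tested genes higher and 6 lower (4 lower after quantile normalization, 3 with hybridization-control centring). In it the regulatory subunit Pik3r1 fell by 0.99, the translation factor Eif4e rose by 0.89 and Akt1 rose by 0.37 (adjusted p = 0.0415).

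Interferon-inducible genes were lower in ISP8 cells without any interferon treatment in the design. Of 37 tested members 30 were lower and 3 higher, with a median change of -1.15 (-1.26, -1.42, -1.29 and -0.89 in mice 1 to 4). After quantile normalization 25 passed as lower and 2 as higher, and with median-centred arrays 24 and 3. Oasl2, an antiviral protein of the oligoadenylate synthetase family, measured 431, 509.6, 771.9 and 600.7 in the DN3 arrays and 46.2, 50.9, 79.5 and 66.2 in the ISP8 arrays (log2 change -3.25, SE 0.22, adjusted p = 2e-07). Ifih1, which encodes the RNA sensor MDA5, measured 4791, 3794, 4099 and 4244 in the DN3 arrays and 655.1, 865.6, 840.2 and 1216 in the ISP8 arrays (log2 change -2.27). The RNA sensor Dhx58 (-2.18) and the GTPases Iigp1 (-2.61) and Gbp2 (-2.01) fell as well. Zbp1, a nucleic acid sensor, fell by 2.22, or by 1.35 without mouse 1, and in mouse 4 its values were level (174.6 and 176). The members that rose were Ifit2 (0.99), Ly6e (0.38) and Samhd1, whose probe sets are described below.

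Most listed genes of class I antigen presentation fell with them. H2-K1 measured 4369, 3457, 4010 and 2231 in the DN3 arrays and 1762, 1146, 1327 and 991.3 in the ISP8 arrays (log2 change -1.42). The other H2-K1 probe sets changed by -0.88, 1.78 and -1.61, of which 2 passed as lower and 0 as higher. H2-D1 fell by 1.19 and B2m, the invariant light chain, by 0.86. H2-Q2, a class I gene outside this list, rose by 4.85. The peptide loading factor Tapbp (-1.45) and the class I transactivator Nlrc5 (-1.34) were lower. Of 12 tested members 10 passed as lower and 0 as higher, with 0 higher at an unadjusted p of 0.05. The number lower was 8 with median-centred arrays and 5 with hybridization-control centring. The immunoproteasome subunit Psmb8 did not pass (-0.14, adjusted p = 0.245). Class I heavy chains are near-identical, so H2-K1 and H2-D1 probe sets may share targets.

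**Figure D4:**
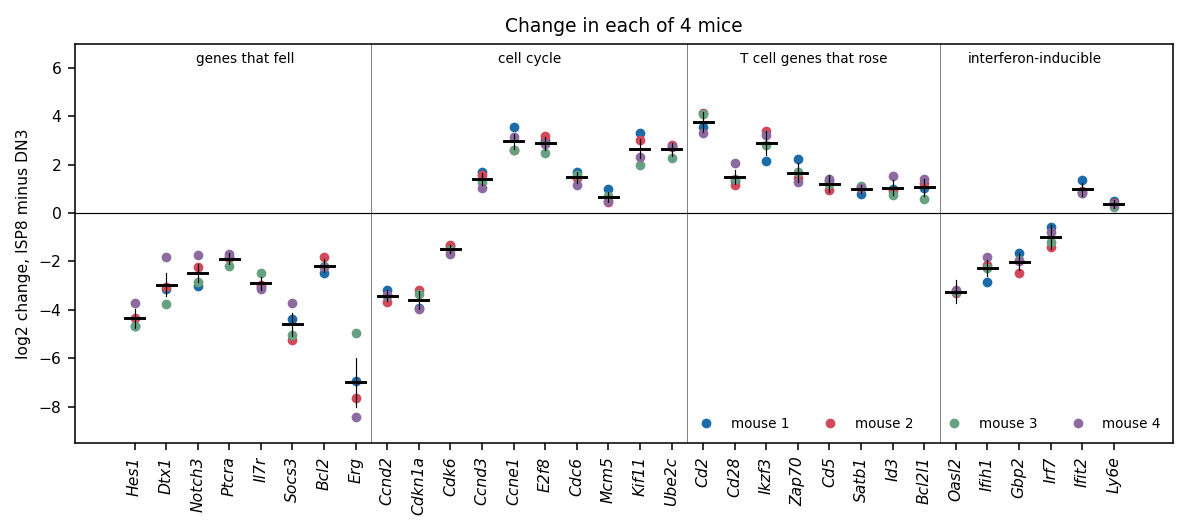
Log2 change from DN3 to ISP8 in each of the 4 mice (dots), with the mean (bar) and its 95% interval (line), for genes of the signaling, cell cycle, T cell and interferon groups described in the text. The 4 dots of each gene lie on the same side of 0, from Erg at a mean of -7.00 to Cd2 at 3.78.

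The largest falls were mostly in genes outside these pathways. Khdc1a, a KH-domain gene known from oocytes and embryos, measured 2616, 2642, 2426 and 3139 in the DN3 arrays and 2.71, 4.68, 5.82 and 4.02 in the ISP8 arrays. As all 4 ISP8 values lay under the floor of 20, the fitted log2 change of -9.34 is no measured fold, and the gene was at least 135-fold lower against that floor. Tifa, an adaptor of NF-kappaB signaling, was at least 37.4-fold lower on the same reckoning (DN3 861.7, 613.9, 777 and 764.7). Pld4, an endolysosomal exonuclease, fell from 2979, 5781, 6226 and 5251 to 92.6, 75.3, 68.7 and 60.7 (log2 change -6.05, SE 0.22, adjusted p = 1.08e-09). Scn4b, a sodium channel beta subunit, fell by 5.72. For Serpinb1a, an inhibitor of leukocyte proteases, 3 of 4 ISP8 values (7.41, 6.60, 54.8 and 6.68) lay under the floor, so its fitted change of -7.00 is no measured fold. The falls with the smallest p were Myl10, a myosin light chain (DN3 6054 to 11540, ISP8 196 to 506.4, log2 change -4.57), and Ccnd2. Atp8b4, a phospholipid flippase (-4.11), and Mpzl2 came close behind.

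Among the largest rises beside Cd8a were Pdlim4, an actin-associated LIM protein (DN3 42.5, 9.29, 9.49 and 12.5, ISP8 692.2, 411.5, 453.6 and 518.1, log2 change 5.11), H2-Q2, a non-classical class I gene (4.85), and Klrd1, which encodes the NK receptor chain CD94 (3.94, or 3.23 without mouse 1). For Pdlim4 and Klrd1 3 of 4 DN3 values lay under the floor of 20, so their fitted changes are no measured folds. The rises with the smallest p were Cd8a, E2f8 and the tubulin gene Tubb2a (697.9 to 996 in the DN3 arrays, 3804 to 5256 in the ISP8 arrays, log2 change 2.47), followed by Ccna2 and Cenpf. For several others the probe sets of a gene differed in the size or the direction of the change. For Samhd1, a dNTP hydrolase, the probe set that rose by 7.19 measured 318.4, 27080, 13490 and 15010 in the ISP8 arrays, so mouse 1 lay far below the others. The 4 other Samhd1 probe sets changed by 0.20, 4.23, 1.04 and 0.69, of which 2 passed as higher and 0 as lower. Pik3cd, the PI3K catalytic subunit p110delta, rose by 4.13 at 1 probe set (DN3 899.6, 20070, 859.4 and 931, ISP8 19150, 45440, 64480 and 24230) while its others changed by -1.24, -2.52, -1.95, -2.52 and 0.59. The direction of Pik3cd is therefore not given, and that list had 5 other members higher.

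The DN3 array of mouse 2 stood high for some of these large rises. Nrip2, a nuclear receptor interacting protein, measured 89.2, 3898, 9.72 and 19 in the DN3 arrays and 7194, 18650, 21050 and 9842 in the ISP8 arrays, a log2 change of 7.17. Boll (5.00) and 1700003E16Rik (4.12) showed the same high value in the DN3 cells of mouse 2, and without it every DN3 value of these 2 probe sets, and 2 of 3 of Nrip2, lay under the floor, so no fold without that mouse is given. Pik3cd (4.13, or 5.11 without mouse 2), Armc8 (4.06, or 4.81) and Laptm5 (4.45, or 4.93) showed it as well. Among the 350 probe sets that rose at least 4-fold, the DN3 array of mouse 2 stood more than 5 times above the next DN3 array in 21, against 2, 3 and 5 for mice 1, 3 and 4. Over all tested probe sets the counts were 122 against 67, 42 and 56. For Armc8 the other probe sets changed by 0.13, 0.13, 0.22 and -0.61, and for Laptm5 by 0.17, -0.28, -0.11 and 0.98. Igha, an immunoglobulin heavy chain constant gene, rose by 4.81 with ISP8 values of 1057, 34.2, 969.3 and 1307, so mouse 2 did not share the high level, and 2 of 4 DN3 values (7.49 and 7.54) lay under the floor.

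Markers of other cells that a sort could hold gave calls in both directions. Over all tested genes 14% were higher and 19.7% lower, and the counts of these small lists were not tested against those shares. B cell markers gave 2 of 10 tested genes higher and 2 lower, with Vpreb1 and Cd79b, which early T cells also transcribe, at -2.57 and -2.21. Ms4a1 (CD20) passed as higher at 2.48, but did not pass without mouse 3 (1.27, adjusted p = 0.103 by limma), without mouse 1 or without mouse 2. The defining B cell genes Pax5 (14.4 to 60.2 over the 8 arrays) and Cd79a (6.65 to 47.6) were dim and did not pass. Their summed level was 9898 to 12610 in the DN3 arrays and 16970 to 19320 in the ISP8 arrays, most of it from Ighm (8085 to 10820 and 16460 to 18470). Dendritic cell and macrophage markers gave 5 of 19 higher, among them the class II genes H2-Aa (2.22), Cd74 (1.79) and H2-Eb1 (2.54, or 1.49 without mouse 3, whose DN3 value was 2.71), and 6 lower, among them Lyz2 (-1.80) and C1qb (-2.83). Their summed level was 3249 to 5915 in the DN3 arrays and 2236 to 4084 in the ISP8 arrays. Neutrophil markers were uneven between mice, with a summed level of 136.2 to 1508 in the DN3 arrays and 230.2 to 4749 in the ISP8 arrays, and S100a8 measured 18.4, 470.1, 106.7 and 563.4 in the DN3 arrays and 172.9, 19.8, 1914 and 254.4 in the ISP8 arrays. The NK and innate list had 3 of 8 higher and 0 lower (0 lower at an unadjusted p of 0.05), erythroid markers 1 of 6 higher (Hemgn, 1.78) and stromal markers 1 of 17 higher and 3 lower. Mature T cell markers gave 2 of 15 higher and 4 lower, with a summed level of 10180 to 13280 in the DN3 arrays and 3902 to 6001 in the ISP8 arrays. Much of the DN3 level came from Il7r (6067 to 7470, ISP8 765.7 to 1257), which early thymocytes also use, and Nkg7 (1350 to 1787, ISP8 123 to 312.5). The median change of this list was 0.54. The part of such cells in the changes above was not tested.

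Some of the brightest genes held level across the step. For 745 probe sets with 1 gene symbol the 95% interval of the log2 change lay within 0.32 of 0, and the brightest of these were ribosomal protein genes such as Rpl13a (0.07), Rps29 (0.00), Rps18 (-0.03) and Rps2 (0.01) and the elongation factor Eef1a1 (0.09). Rpl13a measured 39510, 39480, 36380 and 39540 in the DN3 arrays and 39330, 39700, 40070 and 43500 in the ISP8 arrays. Of 45 ribosomal protein genes 3 were higher and 3 lower. After quantile normalization 3 were higher and 6 lower, with median-centred arrays 15 and 1, and with hybridization-control centring 10 and 0, so the level reading holds on the deposited scale and not on every scale.

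The 4 mice gave alike pictures at the level of lists and less alike ones at single probe sets. Spearman correlations, given as a description, were taken over all probe sets except the array controls, whether tested or not. They were 0.912 to 0.919 between DN3 arrays, 0.902 to 0.910 between ISP8 arrays and 0.874 to 0.899 between a DN3 and an ISP8 array. The log2 changes of 2 mice correlated at 0.304 to 0.336 across the tested probe sets, most of which changed little. The medians of the mitosis, replication, Notch, interferon and MHC class I lists had the same sign in 4 of 4 mice, whereas those of E proteins (0.01, -0.71, -0.79 and 0.43), of T lineage factors (-0.32, -0.25, -0.11 and 0.09) and of the neutrophil markers did not.

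The same step was also measured in 4 PKBalpha-/- littermates, on 8 other arrays with no mouse in common. There 9548 of 33996 tested probe sets (28.1%) passed, 4052 higher and 5496 lower. Of the 9927 probe sets that passed in PKBalpha+/+ mice and were tested in both genotypes, 98.8% changed with the same sign, 7582 (76.4%) passed in the same direction and 3 passed in the opposite one. List medians lay close together, with mitosis at 2.08 in PKBalpha+/+ and 1.96 in PKBalpha-/- mice, replication at 0.88 and 0.72, Notch at -0.65 and -0.58, interferon at -1.15 and -0.97 and MHC class I at -0.53 and -0.49. Hes1 fell by 4.35 and 4.15, Il7r by 2.91 and 3.32 and Socs3 by 4.60 and 4.18 on the log2 scale. The test of the difference itself, in a limma fit of all 16 arrays, called 0 of 36697 probe sets (0.0%), with 1707 at an unadjusted p of 0.05 and a smallest adjusted p of 0.969. Every alternative fit that was run for this test also gave 0 calls. With 4 mice of each genotype this does not show that the changes were alike. Irf7, an interferon-induced transcription factor, had unlike values (log2 change -1.0 in PKBalpha+/+ and -0.10 in PKBalpha-/- mice), a difference that did not pass.

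**Figure D5:**
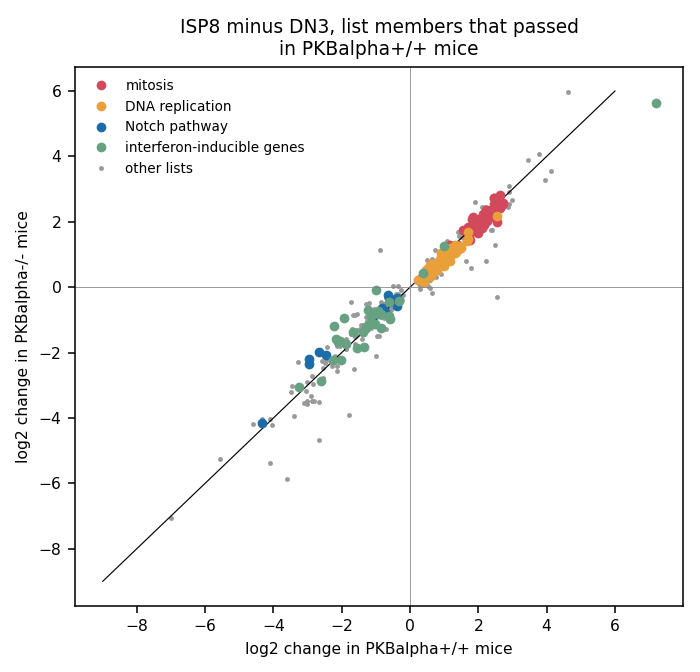
Log2 change from DN3 to ISP8 in PKBalpha-/- mice against that in PKBalpha+/+ mice for the list genes that passed in PKBalpha+/+ mice, with a line at equality. Most points lie near the line, from Erg (-7.00 in PKBalpha+/+ and -7.07 in PKBalpha-/- mice) to Samhd1 (7.19 and 5.64), and the choice by the PKBalpha+/+ result fixes the sign on the horizontal axis.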

How the data were processed

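The authors sorted DN3 and ISP8 thymocytes, labelled the RNA after 2 cycles of amplification and condensed the array scans with GC-RMA in Refiner 3.1 (Genedata), and the deposited table holds the resulting linear intensity values of 45101 probe sets for 16 arrays. The genome build behind the probe annotation is not given in the sources used here. Probe sets were named through the platform annotation given with the data: 34958 had 1 gene symbol, 932 several and 9211 none. The limma p-values of the main test set a change against its spread between 4 mice, with variances shared across probe sets (3 residual and 10.2 prior degrees of freedom). Those of the difference between genotypes rest on 4 mice of each genotype.

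Log2 values with no added constant were fitted with limma 3.58.1 in R 4.3.3, with the mouse as a block and a variance trend, after the 64 array control probe sets were left out. A probe set was tested if it exceeded 20 in at least 1 subset of at least 3 of 4 animals, and passed at a Benjamini-Hochberg adjusted p of 0.05. The scripts were tested on simulated data. A gene of a list is represented by its brightest probe set with 1 symbol. The number of arrays, 4 of each subset, limits the precision, and there is no read depth. A second limma fit of all 16 arrays, paired by mouse, tested the difference of the change between genotypes. The numbers pair DN3 and ISP8 cells because they came from the same mouse, whereas the methods' own paired test set each PKBalpha-/- mouse against a littermate, a pairing not used here. Deviations from the subset means correlated at -0.032 to 0.024 within a mouse and at -0.047 to 0.052 between mice.

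The members and lists were chosen with earlier results of these data known. Named by rule are the sort markers, in each direction the 12 largest changes and the 6 smallest p (mean of at least 200, same sign in 4 of 4 mice), up to 6 members of each of 43 lists, 12 steady genes, the 6 smallest p between genotypes and genes with opposite probe sets. Other list members in the text were chosen after their values were seen. Promoters came from a RefSeq table (GRCm38.p6) and were searched for exact motifs on both strands. Alternatives changed the filter, the added constant, the scaling, the block, the variance model, the arrays fitted and the test.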

Additional observations from a re-analysis of the deposited data

Results flagged for a closer look

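Among 277 named probe sets, 18 had 1 mouse whose log2 change stood far from the other 3 by Dixon's test, a rule that chance alone meets in about 1 of 20 groups of 4. Mouse 1 stood apart for Pdlim4 (4.03, the others' median 5.47), Gm19696 (-7.73 against -5.99), Pld4 (-5.01 against -6.43), Cxcr3 (1.53 against -0.65), Cdc25c (3.97 against 2.37), H2ax (1.57 against 1.14) and Dhx58 (-1.29 against -2.50). Mouse 2 did so for a Cd8a probe set (5.27 against 4.43) and mouse 4 for Bach2 (-3.52 against -2.67). Mouse 3 stood apart for Bcl11a (-5.14 against -2.60), Ube2c (2.27 against 2.76), Tet1 (-2.79 against -1.12), Gars (0.25 against 0.62), Sesn3 (-1.47 against -0.98), Ier2 (-1.41 against -0.65), Lyz2 (-0.45 against -2.21), Klf1 (0.42 against -0.53) and Rps25 (0.67 against 0.36). Only for Cxcr3 and Klf1 among these, neither of which passed, did that mouse move against the direction of the others' median.

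Among the named probe sets, 3 had every PKBalpha+/+ mouse changing one way and every PKBalpha-/- mouse the other. These 3 were named for a small p of the difference between genotypes, so their choice favours this pattern. No count over all tested probe sets is given, so the pattern is not shown to be rare. Psmg2, a proteasome assembly chaperone, changed by 0.39, 0.53, 0.26 and 0.36 in PKBalpha+/+ mice and by -0.86, -0.42, -0.42 and -0.20 in PKBalpha-/- mice, a difference of means of -0.86. Pxt1 changed by -1.27, -0.49, -1.68 and -0.90 against 2.75, 1.36, 2.42 and 2.95, a difference of 3.45. Marcksl1, an actin regulator, changed by -1.49, -0.51, -1.75 and -0.14 at this probe set against 1.26, 1.72, 1.53 and 0.14, a difference of 2.14. None of the 3 differences passed over all probe sets (adjusted p = 0.969 by limma for each).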

How the results depend on the processing

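The number of probe sets that passed stayed within 1.5 times of 9957 under the other filters, an added constant of 20 (10437), quantile normalization, both centrings, robust moderation, a fit of all 16 arrays and leave-one-out fits (7994 to 9412, with 3176 to 3753 higher and 4755 to 5659 lower). Without a variance trend 4393 passed (1436 higher, 2957 lower). The methods' paired t-test with a fold limit, applied here to the DN3 and ISP8 pairs, gave 6622 (2242 higher, 4380 lower), and the methods' t-test after Benjamini-Hochberg gave 3103 (1197 higher, 1906 lower). With arrays centred on the hybridization controls, an alternative chosen after seeing the data, 5824 were higher and 3898 lower, and the Rps10 probe set that fell by 0.21 moved to 0.00. No replicate block gave 8381 calls, of which 8281 passed with the block, and as the pairing follows from the mice the blocked values are the ones reported. The cause of these shifts was not tested.

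Of 243 named probe sets that passed, 151 passed under every alternative run, and 89 no longer passed without a variance trend. Over 43 lists, 19 of 86 counts of higher or lower genes moved by more than 1.5 times with median-centred arrays, 25 with hybridization-control centring, 13 with a gene's probe sets averaged, and 5 to 10 when a mouse was left out. The difference between genotypes gave 0 calls under every alternative run, with a smallest adjusted p of 0.446 without replicate 2. The 4 mice differ in age and sex, array order follows subset, and values under 20 are close to background.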

Other observations

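Immediate early and stress genes, which respond fast to signals and to handling, gave 4 of 19 tested genes higher and 4 lower. Jund, an AP-1 subunit, rose by 0.77 on the log2 scale. The calls of Jun, Ier3 and Zfp36 were lost when mouse 1 was left out, so no direction is given for them. Fos was dim in both subsets and did not pass (-0.28, adjusted p = 0.794). Receptors of the tumour necrosis factor family that costimulate T cells were lower where they passed, with Tnfrsf18 at -1.38 and Cd27 at -0.66, and Tnfrsf9 (-1.74), which did not pass without mouse 4 (-1.08, adjusted p = 0.196 by limma), without mouse 1 or without mouse 2. Among the nuclear factors of activated T cells, Nfatc1 fell by 1.38 and Nfatc3 rose by 1.06. Cytotoxic granule genes differed, with Nkg7 at -3.01 and Gzma at 0.59. In the stromal list 13 of 17 tested genes did not pass and the median change was -0.01. Of its members that passed, Epcam, an adhesion molecule of epithelium, fell by 3.02 and Pdgfrb, a receptor of mesenchyme, by 2.55. Krt18 (-0.92) fell as well, and Ctsl (0.92) rose. The other Epcam probe set changed by -0.25 and did not pass.

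Of 7002 genes with 2 or more tested probe sets, 138 had probe sets that passed in opposite directions.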
